A study of Homo sapiens with 12 samples.

Results

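The genes described here are 9 components of the Notch signalling pathway: the receptors NOTCH1, NOTCH2 and NOTCH3, the ligands JAG1, JAG2 and DLL1, the target genes HES1 and HEY1, and RBPJ, the DNA-binding factor of the pathway. They were chosen by name, and all 9 were found among the 56832 gene symbols of the deposited counts. RNA was sequenced from cells labelled SW1736, a human line from an anaplastic thyroid carcinoma. The cells stably carried a pCDH vector for thyroid hormone receptor beta (TRB cells) or its empty form (EV cells). After 24 h in medium stripped of hormone, they were treated for 24 h with 10 nM T3, the thyroid hormone triiodothyronine, or with the vehicle NaOH. The 4 groups of 3 libraries are called EV vehicle, EV T3, TRB vehicle and TRB T3. EV cells express their own receptor genes, so EV T3 is not a group without receptor. The labels do not say whether the TRB line is 1 clone, nor whether the replicates came from separate cultures, so the p-values measure the spread between these libraries, which may be technical.

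Notch receptors are single-pass membrane proteins that are activated by ligands of the Jagged and Delta-like families on neighbouring cells. Ligand binding leads to cleavage by ADAM proteases and then by gamma-secretase, and the released intracellular domain joins RBPJ and Mastermind proteins in the nucleus to switch on target genes. HES1 and HEY1 are classical direct targets, and both encode basic helix-loop-helix repressors. RBPJ without the intracellular domain recruits corepressors.

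Counts within genes ranged from 3819306 to 13086717 per library. TRB T3 replicate 2 stood apart from the others. Across genes, the difference in log2 CPM (the count relative to the TMM-scaled library size) between it and replicates 1 and 3 of its group had a Spearman correlation of -0.90 with the GC content of the gene's transcripts. The tests of the 7 genes with enough counts are therefore given for all 12 libraries and for the 11 without this one. EV T3 replicate 2 departed from its group in a like direction and was kept in both fits. Across genes, its deviations from the group mean had a Pearson correlation of 0.73 with those of TRB T3 replicate 2. In EV T3 replicate 3, 92% of the entries were multiple alignments. THRB, the gene of the supplied receptor, stood at 12.3 to 18.3 CPM in the 6 EV libraries. It stood at 79.8 to 80.4 CPM in TRB vehicle and 190.3 to 321.9 CPM in TRB T3. This rise in log2 was 1.75 with 12 libraries and 2.0 with 11 (edgeR adjusted p 0.000434 and 2.1e-07). TRB T3 therefore differs from TRB vehicle in hormone and in THRB RNA, and the effects of these cannot be told apart here. KLF9, a gene known to be induced by T3, stood at 13.1 to 14.6 CPM in EV vehicle and 123 to 169.1 CPM in EV T3. Of the thyroid lineage markers, FOXE1 and TSHR had 0 counts in all 12 libraries, and PAX8 and NKX2-1 reached 6.98 and 1.58 CPM at most. The epithelial genes KRT8, KRT18 and EPCAM had medians of 1495, 1364 and 458 CPM over the libraries. Of the mesenchymal genes, VIM reached 1.51 CPM at most and CDH2 had 0 counts, but FN1 stood at 9.15 to 303.1 CPM (median 41.4). The fibroblast gene COL1A1 stood at 1.44 to 33.2 CPM. The endothelial genes CDH5 and KDR had 0 counts in all libraries. High epithelial genes, with VIM and CDH2 at or near 0 but FN1 present, bear on the identity of the line, which was not tested.

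The upstream sequences of HES1, which rose with T3 in TRB cells, and of JAG1, which fell, are shown because both genes lie in the same pathway and moved in opposite directions. They are the 250 bases before the RefSeq gene start, 5′ to 3′ along the gene's strand. Capitals mark the core of the RBPJ recognition sequence, TGGGAA on either strand. The HES1 stretch is chr3:194135898-194136147, plus strand, and the JAG1 stretch is chr20:10674000-10674249, minus strand, both in GRCh38.p14.
HES1: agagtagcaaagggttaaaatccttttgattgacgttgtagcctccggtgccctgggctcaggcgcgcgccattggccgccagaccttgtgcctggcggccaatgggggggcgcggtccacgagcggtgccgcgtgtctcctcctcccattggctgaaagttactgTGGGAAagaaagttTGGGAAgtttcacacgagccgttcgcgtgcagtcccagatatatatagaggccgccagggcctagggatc
JAG1: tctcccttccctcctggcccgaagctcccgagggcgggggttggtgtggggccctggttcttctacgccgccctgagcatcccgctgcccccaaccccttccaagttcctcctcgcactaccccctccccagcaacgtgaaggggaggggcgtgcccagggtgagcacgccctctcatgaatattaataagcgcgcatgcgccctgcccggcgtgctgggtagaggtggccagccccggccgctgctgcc

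The RefSeq table held a promoter window of 300 bases, 250 before and 50 after the start, for 7 of the 9 genes (not for DLL1 and HEY1). HES1 was the 1 gene of these 7 with the RBPJ core in the form TGGGAA, the only form searched. It held 2 copies in the same orientation, beginning 84 and 70 bases before the start. Of 27305 promoters of the same length, 24.3% held at least 1 core and 3.81% held 2 or more. The half-site AGGTCA, bound by thyroid hormone receptors and other nuclear receptors, was in none of the 7 windows on either strand, against 13.9% of all promoters. The N-box CACNAG, a sequence bound by HES proteins, occurred 4 times in the HES1 window, 2 times each in those of NOTCH1 and RBPJ, 1 time each in those of NOTCH2 and NOTCH3, and 0 times in those of JAG1 and JAG2. The 2 matches of NOTCH1, CACTAG and CTAGTG, overlap and are 1 stretch read on both strands. At least 1 match was in 38% and 2 or more were in 8.85% of all promoters, where overlapping matches were counted in the same way. The NOTCH1, NOTCH3 and JAG2 windows had a GC content of 77%, 78.3% and 79.7%, against 59% for HES1, 35.7% for RBPJ and a median of 58.3% over all promoters. These matches describe the letters of a short window and do not show binding.

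With T3 in TRB cells, JAG1 and NOTCH1 fell and NOTCH2 and HES1 rose, so the receptors moved in opposite directions. In edgeR 4 of the 9 genes passed at an adjusted p of 0.05, 2 higher and 2 lower, where 14.7% of 14431 tested genes passed (8.54% higher, 6.20% lower). The same 4 genes passed without TRB T3 replicate 2, where 33.3% of 14825 genes did (18.1% higher, 15.2% lower). In both fits 7 of the 9 were tested; DLL1 and HEY1 had too few counts. The median log2 change of the 7 was -0.78 with 12 libraries and -0.29 with 11, beside 0.01 and -0.01 over all tested genes.

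**Figure D1:**
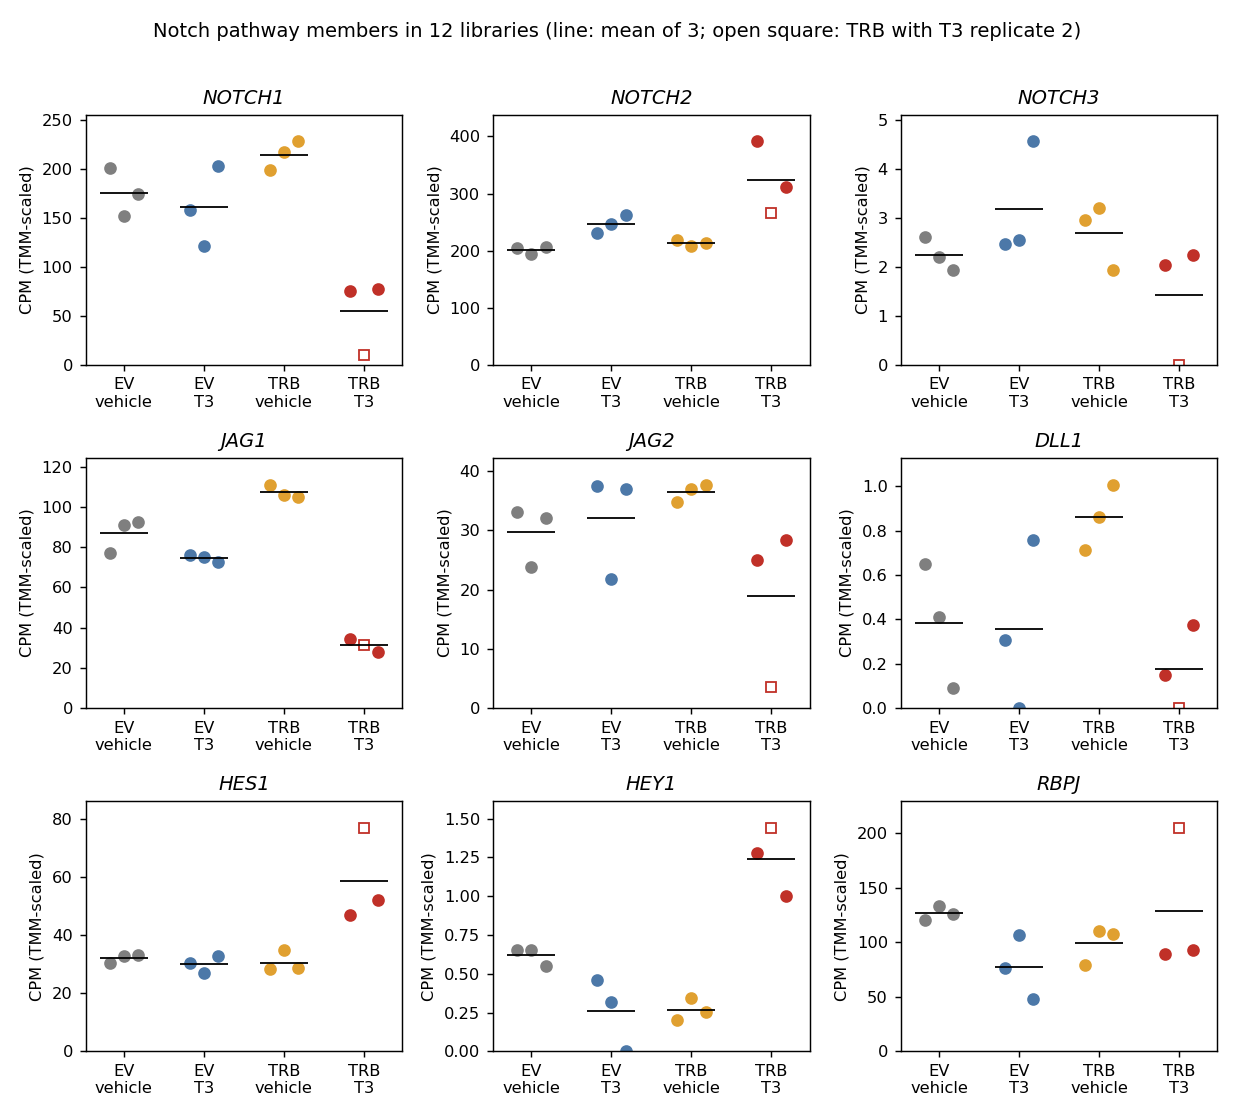
CPM of the 9 genes in each of the 12 libraries, one panel per gene with its own linear axis from 0. Points are libraries, ordered by replicate within each group, lines are group means of 3, and the open square is TRB T3 replicate 2; JAG1 in the TRB T3 libraries sits between 28.1 and 34.1, below all others.

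NOTCH1 (ENSG00000148400.10, chromosome 9, 136494433 to 136545786, minus strand, GRCh38) encodes a receptor of the family. It stood at 200.9, 151.6 and 173.9 CPM in EV vehicle and at 158, 121.5 and 202.7 CPM in EV T3. In TRB vehicle it stood at 198.5, 216.4 and 227.7 CPM, and in TRB T3 at 75.4, 10.3 and 77.6 CPM. All 3 TRB T3 libraries lay below the 9 others, also replicates 1 and 3 alone, and replicate 2 was far below these. With T3 in TRB cells the log2 level of NOTCH1 fell by 1.97 (SE 0.551, edgeR adjusted p 0.0358), and by 1.44 without replicate 2 (SE 0.184, adjusted p 6.5e-05).

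The low value of NOTCH1 in replicate 2 came with the GC trend of that library. NOTCH1 transcripts have a GC content of 63.7%. Replicate 2 minus the mean of replicates 1 and 3 was -2.87 for NOTCH1 in log2 CPM, and -3.31 for the median of the 1216 tested genes with the highest GC content. With an offset for the GC trend of each library NOTCH1 fell by 1.42 with 12 libraries and by 1.51 with 11 (adjusted p 3.27e-07 and 7.43e-11). With 12 libraries the call was lost when EV vehicle replicate 1, 2 or 3 was left out (adjusted p 0.0621, 0.0622 and 0.0649) and when EV T3 replicate 1, 2 or 3 was (0.0647, 0.0547 and 0.0545). It was also lost without TRB vehicle replicate 1, 2 or 3 (adjusted p 0.0954, 0.098 and 0.105), without TRB T3 replicate 1 (0.0501) and with the compared groups alone (0.226). With the compared groups alone and without replicate 2 the adjusted p was 8.66e-10.

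NOTCH2 (ENSG00000134250.19, chromosome 1, 119911553 to 120069626, minus strand) encodes a receptor of the same architecture. It stood at 205.2, 193.8 and 206.3 CPM in EV vehicle, 231.2, 247.3 and 262.5 CPM in EV T3, and 219.4, 208.6 and 214.2 CPM in TRB vehicle. In TRB T3 it stood at 391.3, 265.5 and 312 CPM, all above the 9 other libraries. NOTCH2 transcripts are 47.8% GC. Replicate 2 differed from replicates 1 and 3 by -0.40 in log2 CPM, where the median of 1216 genes of like GC content differed by 0.22. NOTCH2 rose with T3 in TRB cells by 0.59 (SE 0.159, edgeR adjusted p 0.0295), and by 0.77 without replicate 2 (SE 0.108, adjusted p 0.000147). The 12-library call was lost without EV vehicle replicate 1, 2 or 3 (adjusted p 0.0548, 0.0565 and 0.059), EV T3 replicate 1 (0.0525), TRB vehicle replicate 1, 2 or 3 (0.0918, 0.119 and 0.113) and TRB T3 replicate 1 or 3 (0.0802 and 0.0512). It was lost as well with upper-quartile scaling (adjusted p 0.0603), total library size (0.156), no count filter (0.186), at least 10 counts in every library (0.0616) and the compared groups alone (0.245). Total library size moved the median change of all genes to -0.14, and NOTCH2 was 0.47 on that scale. The symbol NOTCH2NL, which names sequences nearly identical to the first exons of NOTCH2, had 1 to 38 counts per library, at most 2.57% of those of NOTCH2, and reads shared between these genes are uncertain.

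NOTCH3 (ENSG00000074181.8, chromosome 19, 15159038 to 15200981, minus strand), a receptor best known from vascular smooth muscle, was scarce. Its counts were 12 to 27 in EV vehicle, 16 to 24 in EV T3, 23 to 37 in TRB vehicle and 27, 0 and 18 in TRB T3. The 0 was in replicate 2, where 3 counts would be 0.54 CPM, and NOTCH3 transcripts are 63.1% GC. Replicates 1 and 3 (2.03 and 2.25 CPM) lay within the range of TRB vehicle (1.93 to 3.19 CPM). NOTCH3 was not called in any comparison in either fit (lowest edgeR adjusted p 0.257).

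The counts of NOTCH2 and NOTCH1 in the same library give a ratio that no scaling between libraries can change; it was chosen after the values were seen. The ratio was 1.02, 1.28 and 1.19 in EV vehicle, 1.46, 2.03 and 1.29 in EV T3, and 1.11, 0.96 and 0.94 in TRB vehicle. In TRB T3 it was 5.19, 25.9 and 4.02. The 3 TRB T3 libraries exceeded all others, and the value of 25.9 belongs to replicate 2 with its GC trend. NOTCH1 transcripts are 63.7% and NOTCH2 transcripts 47.8% GC, so a GC trend of a library can move the ratio. The highest value outside TRB T3, 2.03, belongs to EV T3 replicate 2, which departed from its group in a like direction. Per length of merged exons, NOTCH1 was the higher of these receptors in TRB vehicle (20.6 ± 1.42 against 12.7 ± 0.322 CPM per kb, SD, n = 3). This order rests on lengths of 10.4 kb for NOTCH1 and 16.8 kb for NOTCH2, which join the exons of all annotated transcripts. Which transcripts the cells used was not tested. In TRB T3 replicates 1 and 3 the order was turned, with NOTCH1 at 7.27 and 7.48 and NOTCH2 at 23.3 and 18.6 CPM per kb.

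**Figure D2:**
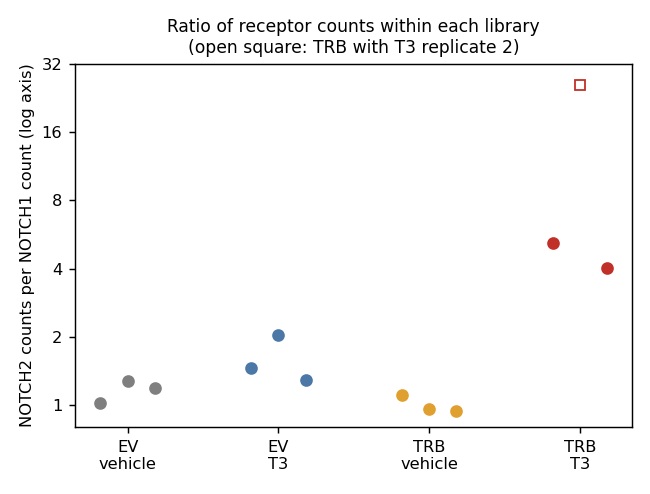
NOTCH2 counts per NOTCH1 count in each library, on a log axis to base 2, by group. The 9 libraries of the other groups lie between 0.94 and 2.03, and the TRB T3 libraries at 4.02, 5.19 and, for the open square of replicate 2, 25.9.

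JAG1 (ENSG00000101384.12, chromosome 20, 10637684 to 10673999, minus strand) encodes a ligand of the Jagged family and is itself a reported target of Notch signalling in several tissues. It stood at 77.1, 91.2 and 92.3 CPM in EV vehicle, 76.1, 75.1 and 72.6 CPM in EV T3, and 111, 106 and 105 CPM in TRB vehicle. In TRB T3 it stood at 34.1, 31.1 and 28.1 CPM, all below the 9 other libraries, of which the lowest had 72.6 CPM. With T3 in TRB cells JAG1 fell by 1.78 (SE 0.151, edgeR adjusted p 3.11e-05), and by 1.73 without replicate 2 (SE 0.123, adjusted p 3.77e-07). Replicate 2 differed from replicates 1 and 3 by 0.01 on the log2 scale, at a GC content of 50.6%. The median of 1215 genes of like GC content differed by -0.36. The fall passed in each of 25 other fits, with values from -1.93 to -1.71.

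JAG2 (ENSG00000184916.8, chromosome 14, 105140981 to 105168824, minus strand), the other Jagged ligand, stood at 34.8, 37 and 37.7 CPM in TRB vehicle and at 24.9, 3.6 and 28.4 CPM in TRB T3. It stood at 23.9 to 33 CPM in EV vehicle and 21.8 to 37.5 CPM in EV T3. Replicates 1 and 3 of TRB T3 lay below the TRB vehicle libraries and within the range of both EV groups. The change with T3 in TRB cells was -0.93 (edgeR adjusted p 0.257), and -0.41 without replicate 2 (adjusted p 0.156), and it was not called in either fit. JAG2 transcripts are 64.1% GC, and with GC offsets the change passed with 12 and with 11 libraries (-0.40 and -0.48, adjusted p 0.00967 and 0.000256). It also passed when TRB vehicle and TRB T3 were fitted alone without replicate 2 (-0.42, adjusted p 0.00252). An annotated gene on the same strand shares 469 exonic bases with JAG2, so part of its reads are uncertain.

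DLL1 (ENSG00000198719.8, chromosome 6, 170282206 to 170306565, minus strand), a Delta-like ligand, was near the limit of detection. It had 3, 5 and 1 counts in EV vehicle, 2, 0 and 3 in EV T3, 7, 10 and 12 in TRB vehicle and 2, 0 and 3 in TRB T3. The TRB vehicle libraries held the most counts, but their levels (0.711 to 1.01 CPM) overlapped with EV T3 replicate 3, whose 3 counts make 0.759 CPM. The 0 counts of EV T3 replicate 2 and TRB T3 replicate 2 allow up to 0.317 and 0.54 CPM. Fitted without a count filter, the T3 change in TRB cells was -2.15 with 12 libraries and -1.78 with 11 (edgeR adjusted p 0.147 and 0.0622). The summed counts, 29 with vehicle and 5 with T3, gave a ratio of 4.68 per depth (exact 95% interval 1.79 to 15.5, counting error only).

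RBPJ (ENSG00000168214.20, chromosome 4, 26163455 to 26435131, plus strand) stood at 119.9, 133.1 and 126.2 CPM in EV vehicle, 76.1, 106.9 and 48.3 CPM in EV T3, and 79.3, 110.5 and 107.3 CPM in TRB vehicle. In TRB T3 it stood at 89.6, 204.5 and 92.7 CPM. Replicates 1 and 3 lay within the range of TRB vehicle, and replicate 2 was 1.16 higher than these in log2 CPM, where the median of 1216 genes of like, low GC content was 1.30 higher. The T3 change in TRB cells was 0.38 with 12 libraries and -0.07 with 11 (edgeR adjusted p 0.473 and 0.852). In EV cells all 3 libraries with T3 lay below those with vehicle. That change was -0.71 with 12 and -0.69 with 11 libraries (edgeR adjusted p 0.877 and 0.0778) and was called in neither. In 11-library fits it passed with DESeq2 (adjusted p 0.0255) with GC offsets, where it was -0.38 (adjusted p 0.00952), and without a count filter (-0.70, adjusted p 2.67e-05). In the last of these fits the interaction of RBPJ passed too (0.62, adjusted p 0.0305), which it did in no other setting.

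HES1 (ENSG00000114315.3, chromosome 3, 194136145 to 194138732, plus strand), the gene whose upstream sequence holds the RBPJ cores marked above, stood at 30.4, 32.9 and 33 CPM in EV vehicle and 30.6, 27 and 32.7 CPM in EV T3. It stood at 28.3, 34.9 and 28.5 CPM in TRB vehicle and at 46.8, 76.8 and 52 CPM in TRB T3. All 3 TRB T3 libraries lay above the 9 others, which spanned 27 to 34.9 CPM. HES1 rose by 0.93 with T3 in TRB cells (SE 0.208, edgeR adjusted p 0.0119), and by 0.74 without replicate 2 (SE 0.126, adjusted p 0.000659). With 12 libraries it did not pass when no count filter was set or when the 6 TRB libraries were fitted alone (adjusted p 0.0551 and 0.131). HES1 transcripts are 50.7% GC, near the middle of the tested genes, and not GC-rich. Replicate 2 was 0.64 above replicates 1 and 3 in log2 CPM, where the median of 1215 genes of like GC content differed by -0.36.

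**Figure D3:**
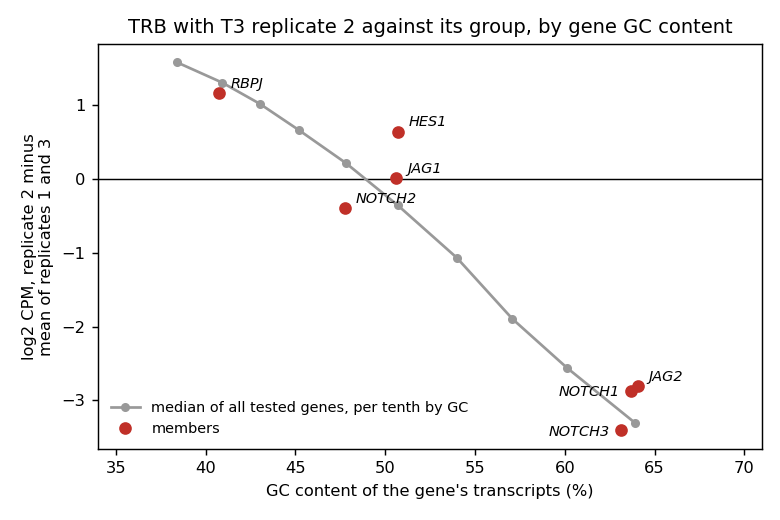
For the 7 tested genes (red), log2 CPM of TRB T3 replicate 2 minus the mean of replicates 1 and 3, against the GC content of their transcripts in percent. The grey line joins the medians of 10 equal groups of all tested genes with a GC value, from 1.58 at the lowest GC content to -3.31 at the highest. NOTCH1, NOTCH3 and JAG2 lie at its low end, RBPJ at its high end, HES1 and JAG1 above it and NOTCH2 below it.

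HEY1 (ENSG00000164683.16) had 3, 8 and 6 counts in EV vehicle, 3, 3 and 0 in EV T3, 2, 4 and 3 in TRB vehicle and 17, 8 and 8 in TRB T3. In TRB T3 it stood at 1.28, 1.44 and 0.999 CPM, all above the other 9 libraries, whose highest was 0.654 CPM. The 0 of EV T3 replicate 3, the shallowest library, allows up to 0.759 CPM. The summed counts of TRB cells, 33 with T3 and 9 with vehicle, gave a ratio of 4.55 per depth (exact 95% interval 2.13 to 10.8, counting error only). Fitted without a count filter, the rise in TRB cells was 2.11 (SE 0.551, edgeR adjusted p 0.0239), and 2.09 without TRB T3 replicate 2 (SE 0.597, adjusted p 0.0041). Where a count filter lets HEY1 in, it does so through the group in which HEY1 is high, and those calls are not given as support. Its size rests on few counts, and the T3 change in EV cells had a value of -1.07 (adjusted p 0.921).

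In EV cells, none of the 9 genes passed in edgeR with 12 libraries, where 0.229% of tested genes passed (0.208% higher, 0.0208% lower), nor with 11, where 7.33% did (3.76% higher, 3.57% lower). With an unadjusted p under 0.05 there were 0 genes in the first fit and 2 in the second, NOTCH2 (0.29, p 0.012) and RBPJ (-0.69, p 0.00927), both from edgeR fits. DESeq2 called 0 with 12 libraries and 2 with 11, again NOTCH2 and RBPJ. With 11 libraries NOTCH1, JAG1 and HES1 had values of -0.13, -0.22 and -0.10 (adjusted p 0.596, 0.187 and 0.591). With GC offsets NOTCH1 passed, lower, with 12 and 11 libraries (-0.42 in both, adjusted p 0.025 and 0.000585), and JAG1 and NOTCH2 passed with 11 (-0.30 and 0.31, adjusted p 0.0132 and 0.0106). The EV T3 libraries themselves spread widely for NOTCH1, from 121.5 CPM in replicate 2 to 202.7 in replicate 3. RBPJ ran the other way, from 106.9 CPM in replicate 2 to 48.3 in replicate 3.

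Between the vectors in vehicle, none of the 9 genes was called with 12 libraries (0.0208% of tested genes passed, 0.00693% higher and 0.0139% lower) or with 11 (0.0742%, 0.0270% higher and 0.0472% lower). The unadjusted p was under 0.05 in edgeR for 0 and for 1 gene. DESeq2 called 0 in both. That 1 gene was JAG1, whose 3 TRB libraries (105 to 111 CPM) lay above the 3 EV libraries (77.1 to 92.3 CPM). Its difference was 0.30 with 12 and 0.32 with 11 libraries (edgeR adjusted p 1 and 0.353), and it passed with the 6 vehicle libraries alone (0.32, adjusted p 0.0329). HES1 differed by -0.07 (SE 0.207) with 12 libraries and by -0.06 (SE 0.117) with 11.

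With T3, JAG1 was lower in TRB than in EV cells (log2 difference -1.26, SE 0.149, edgeR adjusted p 0.00081) and HES1 was 0.96 higher (SE 0.209, adjusted p 0.0209). These were the 2 genes called with 12 libraries, where 6.68% of tested genes passed (4.13% higher, 2.55% lower). Without TRB T3 replicate 2, 4 genes were called, where 19.7% passed (11.8% higher, 7.90% lower). JAG1 (-1.20, adjusted p 2.22e-05) and NOTCH1 (-1.0, adjusted p 0.00197) were lower, and HES1 (0.78, adjusted p 0.00101) and NOTCH2 (0.57, adjusted p 0.00257) were higher. With 12 libraries NOTCH1 and NOTCH2 had values of -1.56 and 0.39 (adjusted p 0.118 and 0.165). HES1 did not pass without EV T3 replicate 1 or 2 (adjusted p 0.0776 and 0.068), without a count filter (0.0761) or when the 6 T3 libraries were fitted alone (0.302), where JAG1 did not pass either (0.104). Those 6 libraries without replicate 2 gave adjusted p of 0.00449 for JAG1, 0.0279 for NOTCH1, 0.0403 for HES1 and 0.0909 for NOTCH2.

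**Figure D4:**
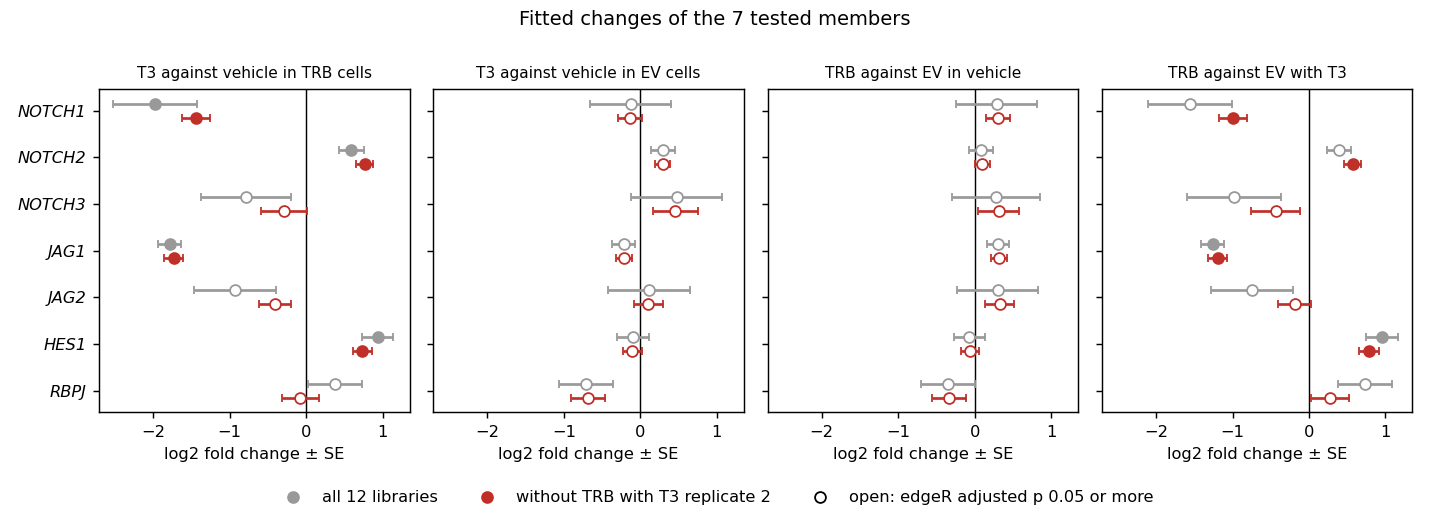
Fitted log2 fold changes with standard errors for the 7 tested genes in the 4 comparisons of a pair of groups, with all 12 libraries (grey) and without TRB T3 replicate 2 (red). Filled points passed an edgeR adjusted p of 0.05; in the middle panels no point is filled, and JAG1 and HES1 are filled in both fits in the outer panels.

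The T3 response itself was compared between the vectors with an interaction term. JAG1 responded more negatively in TRB than in EV cells, by -1.57 with 12 libraries (SE 0.208, edgeR adjusted p 0.00346) and -1.51 with 11 (SE 0.158, adjusted p 6.39e-05). With 12 libraries JAG1 was the 1 gene of the 9 called, where 2.59% of tested genes passed (1.77% higher, 0.825% lower). With 11 libraries 4 were called, where 15.2% passed (8.55% higher, 6.68% lower): JAG1 and NOTCH1 (-1.30, adjusted p 0.0034) with a more negative and HES1 (0.84, adjusted p 0.007) and NOTCH2 (0.47, adjusted p 0.048) with a more positive response in TRB cells. On the same 11 libraries NOTCH2 did not pass without a count filter (edgeR adjusted p 0.116) or with a replicate block (0.0573). With 12 libraries NOTCH1, HES1 and NOTCH2 had values of -1.84, 1.03 and 0.30 (adjusted p 0.222, 0.105 and 0.414). The comparisons share libraries: T3 in TRB cells, TRB against EV T3 and the interaction all use the TRB T3 libraries, so their calls are not separate observations.

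Ordered by level per length of merged exons in EV vehicle, the genes ran from NOTCH1 (16.9 ± 2.38 CPM per kb, SD, n = 3) over HES1 (15.6 ± 0.706), RBPJ (13.7 ± 0.716), NOTCH2 (12 ± 0.414), JAG1 (9.34 ± 0.911) and JAG2 (4.63 ± 0.787) to NOTCH3, HEY1 and DLL1 (0.239, 0.191 and 0.119). NOTCH1 and HES1 did not differ beyond their spread, nor did HEY1 and DLL1. The order depends on lengths that join the exons of all annotated transcripts, and the levels were not corrected for GC content. In TRB T3 replicates 1 and 3 HES1 (22.7 and 25.2 CPM per kb) and NOTCH2 (23.3 and 18.6) came first, and JAG1 (3.67 and 3.02) had fallen to the level of JAG2 (3.89 and 4.43).

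Over the 11 libraries without TRB T3 replicate 2, which form 4 groups and so do not vary independently, the log2 CPM of NOTCH1 had a Pearson correlation of 0.90 with JAG1 and -0.83 with NOTCH2. HES1 had -0.88 with JAG1 and 0.77 with NOTCH2. RBPJ had 0.01 with HES1 and -0.05 with NOTCH1. Of the tested genes whose mean log2 CPM reached 1, those most like NOTCH1 were FGFR4 (0.99), EVPL (0.98) and NTSR1 (0.98). Those most like NOTCH2 were PTGFRN (0.98), ACACA (0.98) and MYH10 (0.97). Those most like JAG1 were CTSE (0.99), YARS (0.98) and SYK (0.98), and those most like HES1 were PLAC8 (0.97), GDF15 (0.97) and OTUD1 (0.96).

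A wider list of 66 other genes of the pathway covered further receptors and ligands, glycosylation, endocytosis, cleavage, receptor turnover, nuclear cofactors and other targets. With T3 in TRB cells 10 of the 56 tested passed with 12 libraries (6 higher, 4 lower; 17.9%, beside 14.7% of all tested genes). Without TRB T3 replicate 2, 28 of 57 passed (19 higher, 9 lower; 49.1%, beside 33.3%). In EV cells 0 passed with 12 libraries and 6 with 11 (4 higher, 2 lower; 10.5%, beside 7.33%). Between the vectors in vehicle 0 and 1 passed (0% and 1.75%, beside 0.0208% and 0.0742%). With T3, 6 of 56 and 15 of 57 differed between the vectors (10.7% and 26.3%, beside 6.68% and 19.7%). For the interaction 3 and 11 passed (5.36% and 19.3%, beside 2.59% and 15.2%). The median log2 change with T3 in TRB cells was 0.17 and 0.24 for the list. The 57 genes include a further ligand that was tested only with 11 libraries. It was called higher with T3 in TRB cells and higher in TRB than in EV cells with T3. Those calls are not given as support.

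Among ligands and the enzymes that act on them, DLL4, a Delta-like ligand of vessel sprouting, fell with T3 in TRB cells in both fits (-1.70 and -1.25, edgeR adjusted p 0.0418 and 0.00371). It stood at 7.01, 7.41 and 7.97 CPM with vehicle and 2.78, 0.36 and 3.37 CPM with T3. NEURL1, a ubiquitin ligase that promotes ligand endocytosis, had 45, 53 and 55 counts in TRB vehicle and 1, 0 and 0 in TRB T3, a ratio of 123.3 per depth (exact 95% interval 21.8 to 4903, counting error only). Its fall passed in both fits (edgeR adjusted p 2.62e-05 and 2.42e-06). In EV cells NEURL1 had 14, 20 and 26 counts with vehicle and 6, 6 and 5 with T3, and passed with 11 libraries (-1.33, adjusted p 0.0436) but not with 12 (-1.35, adjusted p 0.305). MFNG, a fringe glycosyltransferase that modifies Notch receptors, was 2.09 higher with 11 libraries (adjusted p 0.00044) and had a value of 1.59 with 12 (adjusted p 0.103). Of the 8 genes for cleavage, 1 was called with 12 libraries and 2 with 11, all higher. ADAM10, the protease that makes the first ligand-dependent cut, rose in both fits (1.61 and 0.94, adjusted p 0.0218 and 0.00362). It stood at 136, 165 and 164.8 CPM in TRB vehicle and 297.6, 848 and 280.6 CPM in TRB T3, where the 848 belongs to replicate 2.

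Among nuclear cofactors and targets, the Groucho-family corepressors TLE3 and TLE1 moved in opposite directions with T3 in TRB cells in both fits. TLE3 rose (1.64 and 2.07, edgeR adjusted p 0.0136 and 8.22e-08) and TLE1 fell (-0.99 and -0.90, adjusted p 0.0046 and 0.000762). In EV cells TLE3 was higher with T3 with 11 libraries (0.68, adjusted p 0.00528) and did not pass with 12 (0.67, adjusted p 0.909). TLE3 stood at 54.1, 59.1 and 56.3 CPM in TRB vehicle and at 220, 67.1 and 239.3 CPM in TRB T3. BHLHE41, a basic helix-loop-helix repressor related to HES proteins and best known from the circadian clock, showed the largest rise among the named genes. It stood at 61.7, 60.2 and 54.9 CPM in EV vehicle, 123.2, 140 and 104.8 CPM in EV T3, 24.7, 29.1 and 28.8 CPM in TRB vehicle, and 315.1, 698.3 and 334.1 CPM in TRB T3. The 4 groups did not overlap. With 11 libraries BHLHE41 was higher with T3 in TRB (3.60) and in EV cells (1.07) and lower in TRB than in EV cells with vehicle (-1.08, adjusted p 0.00378), and its interaction was 2.54 (adjusted p 4.35e-06). With 12 libraries the rise in TRB cells (4.03, adjusted p 2.1e-05) and the interaction (2.97, adjusted p 0.00378) passed. The change in EV cells (1.06, adjusted p 0.28) and the difference in vehicle (-1.10, adjusted p 1) did not. DTX3L, of the Deltex family of ubiquitin ligases, rose with T3 in TRB cells in both fits (1.94 and 1.66). In EV cells DTX3L was higher with 11 libraries (0.51, adjusted p 0.0207) and had a value of 0.50 with 12 (adjusted p 0.807). HES6, which encodes an inhibitor of HES1, had a value of -2.16 with 12 libraries (adjusted p 0.0653) and was lower with 11 (-1.68, adjusted p 0.0167). CDKN1A, an inhibitor of cyclin-dependent kinases, passed with 11 libraries in TRB (1.56) and EV cells (0.69, adjusted p 0.0376), and stood at 42.3, 7.56 and 49.3 CPM in TRB T3. With 12 libraries its values were 1.05 and 0.68 (adjusted p 0.187 and 0.935). SOX9 was lower with T3 in both cell types with 11 libraries (-0.36 in TRB and -0.55 in EV cells, adjusted p 0.0395 and 0.0137) and in neither with 12 (-0.40 and -0.55, adjusted p 0.0922 and 0.277). KAT2A, a histone acetyltransferase, was lower in TRB than in EV cells with T3 with 11 libraries (-0.49, adjusted p 0.0261) and had a value of -1.06 with 12 (adjusted p 0.259).

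**Figure D5:**
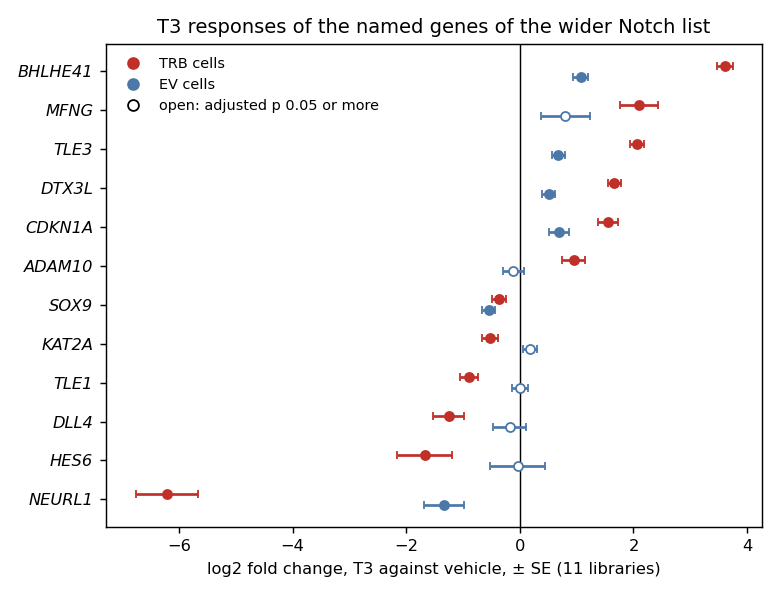
Log2 fold changes with T3 against vehicle, with standard errors, for the 12 named genes of the wider Notch list in TRB cells (red) and EV cells (blue), fitted without TRB T3 replicate 2. Filled points passed an edgeR adjusted p of 0.05; the size for NEURL1 depends on the prior count, since its TRB T3 libraries held 1 count or none.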

How the data were processed

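Per the labels' protocols, libraries of the 12 samples were made from total RNA with Kapa Hyperprep reagents. The authors deposited a raw count of reads for every gene symbol in each library. The submitters' processing notes name hg38, CASAVA 1.7, STAR 2.7, HTSeq 0.10 and DESeq2. Strand setting and annotation are not given in the sources used here, so reads of overlapping genes are uncertain. Lines naming no gene were left out: per library, 19% to 92% of the entries were multiple alignments, 2.14% to 24.4% lay in no feature and 0.258% to 1.81% were ambiguous. A deposited table of normalized values was not used (15 columns).

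Tests used R 4.3.3 and edgeR 4.0.16: filterByExpr (minimum count 10, total 15), TMM scaling, a quasi-likelihood fit of all 4 groups, two-sided, Benjamini-Hochberg adjustment over all tested genes at 0.05. The biological coefficient of variation was 0.329, and 0.131 without TRB T3 replicate 2. Floors are 3 counts. GC content and exon length come from GENCODE 29 by symbol (12157 of 14431 tested genes, 84.2%), promoters from RefSeq. GC offsets take out a spline trend (5 degrees of freedom) per library. Log2 CPM for correlations used a prior count of 2. Alternatives were DESeq2 1.42.0, other scalings and filters, the compared groups alone, GC offsets, a replicate block and leaving out each library. The edgeR, DESeq2, replicate block and GC offset fits were run on simulated counts of 12 libraries. Limits on recovered and false calls were set only for edgeR without a GC trend, and fits of 11 libraries were not simulated.

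The genes, lists and rules were chosen with earlier results of these data known. From the wider list, genes past the threshold on 11 libraries whose mean log2 CPM reached 1 were named, up to 4 in each direction per comparison.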

Additional observations from a re-analysis of the deposited data

Results flagged for a closer look

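The T3 response of some of the genes differed between TRB and EV cells by the interaction test in edgeR. With 12 libraries this held for JAG1 (-1.57). Without TRB T3 replicate 2 it held for JAG1 (-1.51), NOTCH1 (-1.30), HES1 (0.84) and NOTCH2 (0.47). Of these NOTCH2 passed narrowly (edgeR adjusted p 0.048). On the same 11 libraries it did not pass without a count filter (0.116) or with a replicate block (0.0573). Each value is the log2 change with T3 in TRB cells minus that in EV cells. JAG1 fell in TRB cells from 107.3 ± 3.21 to 31.1 ± 3.02 CPM (SD, n = 3), and stood at 86.9 ± 8.47 CPM with vehicle and 74.6 ± 1.78 CPM with T3 in EV cells.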

How the results depend on the processing

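Of 842 refits of the 35 changes of a tested gene in a comparison, 753 kept their direction and their side of the threshold, 32 lost the call, 44 gained one and 13 changed sign, none of these called. Only changes called with 12 libraries could lose a call. For T3 in TRB cells, NOTCH1 passed in 14, NOTCH2 in 11, HES1 in 23 and JAG1 in 25 of 25 other fits. Between the vectors with T3, HES1 passed in 21 and JAG1 in 24 of 25. JAG1 kept its call for T3 in TRB cells and for the interaction in every setting run, and the cause of the other changes was not tested unless named. Counts of called genes moved with those over all tested genes, whose share follows each in brackets. With T3 in TRB cells (14.7% with 12 libraries) the compared groups alone gave 2 (4.52%) and these groups without TRB T3 replicate 2 gave 7 (50%). HEY1, and in the second also DLL1, was among them, tested only through the group where it is high; the 7 genes tested with 12 libraries alone gave 1 and 5. Leaving out 1 library gave 2 to 4 of these 7 (8.48% to 33.3%). With T3 in EV cells (0 genes, 0.229%), GC offsets gave 1 (4.67%); without replicate 2, GC offsets gave 4 (18.5%), DESeq2 2 (13%), the replicate block 1 (13.3%) and no count filter 1 (7.93%). Leaving out 1 library gave 0 to 0. Between the vectors in vehicle the compared groups alone gave 1 (11.2%, against 0.0208%). With T3 between the vectors (2 genes, 6.68%), no count filter gave 1 (2.19%) and the compared groups alone 0 (0.241%). Without replicate 2, GC offsets (42.5%), DESeq2 (20.6%) and the replicate block (21.7%) gave 4, the compared groups alone 3 (8.85%) and no count filter 5 with HEY1 (10.2%). Leaving out 1 library gave 1 to 4 (2.79% to 19.7%). For the interaction (1 gene, 2.59%) DESeq2 gave 2 (7.08%) and GC offsets 3 (21%). Without replicate 2, GC offsets (35.3%) and DESeq2 (18.1%) gave 4, and the replicate block gave 3, without NOTCH2 (22.1%). No count filter gave 5, with HEY1 and RBPJ but without NOTCH2 (9.31%). Leaving out 1 library gave 1 to 4 (0.918% to 15.2%).

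The changes of sign were small. NOTCH1 with T3 in EV cells ran from -0.297 to 0.0926 over the fits that left out 1 library, and was 0.036 without EV vehicle replicate 1 and 0.0926 without EV T3 replicate 2. JAG2 there was -0.18 with GC offsets on 12 and on 11 libraries, and HES1 there was 0.0285 without EV T3 replicate 2. Between the vectors in vehicle HES1 ran from -0.141 to 0.0108 when 1 library was left out, with 0.0108 and 0.00957 for lack of TRB vehicle replicate 1 or 3. RBPJ with T3 in TRB cells ran from -0.0733 without TRB T3 replicate 2 to 0.581 without replicate 1. On the 11 libraries it was -0.0653 in DESeq2, -0.0738 for the compared groups alone and -0.0847 without a count filter. GC offsets gave -0.16 on 12 and -0.12 on 11 libraries. Fits without TRB T3 replicate 2 under DESeq2, the compared groups alone, the replicate block and no count filter were chosen after seeing the data.

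Libraries share replicate numbers across groups, and the labels name no shared origin. Of 18 pairs with the same number in different groups, 12 had deviations from their group means that correlated by more than 0.1 (range -0.19 to 0.73), and 6 of 12 libraries correlated best with their own number, with a median of 0.149 for pairs of the same and -0.0938 for pairs of different numbers. Since not every pair exceeded 0.1, the libraries were not treated as paired. With the replicate block, 4, 0, 0, 2 and 1 genes were called in the comparisons in the order of the report, as without it. With the block and without TRB T3 replicate 2, NOTCH2 for the interaction had 0.46 (adjusted p 0.0573), RBPJ with T3 in EV cells -0.73 (adjusted p 0.03) and JAG2 with T3 in TRB cells -0.54 (adjusted p 0.0307). DLL1, HEY1 and NOTCH3 are limited by depth.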
